A study of Mus musculus with 18 samples.

Results

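The mature miRNAs of mouse embryonic fibroblasts (MEF) that overexpress the miR-17~92 cluster, called OV, were compared with those of MEF that carry the floxed cluster, called fl/fl. The comparison uses 6 of the 18 libraries of the series, the OV libraries OV1, OV2 and OV4 and the fl/fl libraries FL3, FL4 and FL5, named by their columns in the deposited table. Kept for the comparison were the miRNAs whose normalized count averaged 10 or more over the 9 libraries of that table, 662 of the 1204 listed. The series describes its cells as isogenic lines with 3 levels of the cluster, and gives the strain of every sample as Eu-myc mice. The 3 other libraries of the table are MEF in which the cluster is deleted, called d/d. They share the estimate of the spread in the fit and are quoted only as background. The vector and promoter that raise the cluster in OV cells were not stated in the labels. The labels also do not say whether the 3 libraries of a group come from separate cultures or embryos. The p-values therefore measure the spread between these libraries, which may be technical. The question of the comparison is how the miRNA repertoire of a fibroblast looks when this cluster is set to a higher level.

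MiR-17~92 is a polycistron: 1 long primary transcript carries 6 hairpins, and Drosha and Dicer cut each of them into a 5p and a 3p mature miRNA. A mature miRNA recognises its targets mainly through its seed, bases 2 to 8, and the products of the cluster fall into several seed groups that repress, among others, the pro-apoptotic Bim and E2F factors. The cluster is activated by MYC, is amplified in lymphomas and promotes proliferation. Its paralogs, miR-106b~25 and the cluster from miR-106a to miR-363, encode miRNAs with the same seeds from other chromosomes. In the mouse genome (GRCm38), the 6 hairpins lie between 115043671 and 115044506 on chromosome 14, plus strand, all within exon 2 of the non-coding host gene Mir17hg (ENSMUSG00000089726.2, 115042879 to 115046727).

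The sequences below are the mature products on which the results turn. They are shown because shared seeds bear on overlap in function, and nearly identical whole sequences on overlap in counting. They come from RefSeq (GRCm38.p6), where 553 of the 662 kept miRNAs were matched by name. Capitals mark the seed, bases 2 to 8 from the 5′ end. MiR-17-5p and miR-20a-5p share a seed with miR-93-5p, miR-106b-5p, miR-106a-5p and miR-20b-5p.
miR-17-5p: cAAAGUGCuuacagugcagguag
miR-20a-5p: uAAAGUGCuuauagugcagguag
miR-106a-5p: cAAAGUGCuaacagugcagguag
miR-20b-5p: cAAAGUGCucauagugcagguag
miR-106b-5p: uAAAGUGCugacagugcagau
miR-93-5p: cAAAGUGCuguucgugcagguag
MiR-18a-5p has another seed, which among the listed miRNAs only miR-18b-5p shares.
miR-18a-5p: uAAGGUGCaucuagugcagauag
MiR-19a-3p and miR-19b-3p share a seed and differ by 1 base, U11C.
miR-19a-3p: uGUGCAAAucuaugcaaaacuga
miR-19b-3p: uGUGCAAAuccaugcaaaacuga
MiR-92a-3p shares its seed with miR-92b-3p and with miR-25-3p of the paralogous cluster.
miR-92a-3p: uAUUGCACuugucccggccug
miR-92b-3p: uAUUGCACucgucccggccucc
miR-25-3p: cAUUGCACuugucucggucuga
Counted from the 5′ end, miR-106a-5p differs from miR-17-5p by U10A alone, and miR-20b-5p differs from miR-20a-5p by U1C and U10C. The labels do not state how reads matching such near copies were assigned. MiR-92a-3p and miR-19b-3p are also encoded on chromosome X, in Mir92-2 and Mir19b-2, so their counts cannot be divided between the loci.

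The 6 libraries held 17191893 to 18609611 miRNA reads each, and the kept miRNAs took at least 99.99% of them. Values are read counts divided by 1 size factor per library, called normalized counts. MiR-21a-5p, abundant in fibroblasts, had the highest mean over the 6 libraries. All 21 listed products on a mesenchymal and fibroblast list were kept. They summed to 4660711 to 4828014 in OV and 5245448 to 5511266 in fl/fl. Of other cell types, the haematopoietic list summed to between 20.9 and 50.4 in OV and between 23.5 and 50.1 in fl/fl. The pluripotency list summed to at most 20.5, and was at 0 in OV4. The epithelial list summed to between 166 and 202 in OV and between 280 and 296 in fl/fl. Not all lists of other tissues were low. The muscle miRNA miR-206-3p stood at 24119 to 30727 in OV and 35536 to 35808 in fl/fl. The groups did not overlap, but it was not called (limma, adjusted p = 0.0561). The neural list summed to between 54715 and 70863 in OV and between 41845 and 45355 in fl/fl. The endothelial and liver list summed to between 2461 and 2933 in OV and between 2486 and 2715 in fl/fl. The OV libraries lay farther from their group mean (median absolute deviation per miRNA 0.18 to 0.23 log2) than the fl/fl libraries (0.09 to 0.13). OV1, OV2 and OV4 had 121, 81 and 138 miRNAs at 0.5 log2 or more from the OV mean. By the median deviation OV1 was the farthest from that mean and OV4 the nearest. In bulk RNA, more cells that make a miRNA and more of it per cell cannot be told apart.

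All 10 kept products of miR-17~92 were higher in OV, and in each of them every OV library was above every fl/fl library. Their background is the whole table, in which 15.6% of the 662 miRNAs were called higher (adjusted p under 0.05, limma) and 24.5% were higher without overlap between the groups. Without overlap 24.2% were lower, and 48.6% differed in either direction. MiR-92a-3p, a repressor of Bim and of integrin genes, was the most abundant. It reached 354688 normalized counts in OV1, 437911 in OV2 and 399042 in OV4, and 90491 in FL3, 60191 in FL4 and 66451 in FL5. The lowest OV library thus held more than 3 times the highest fl/fl library, and the log2 difference was 2.47 ± 0.16 (SE, adjusted p = 1.18e-05). It was the largest log2 difference called among the 30 miRNAs with a mean over 100000.

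MiR-17-5p, which targets E2F factors and the cell cycle inhibitor p21, stood at 13434, 9879 and 9980 normalized counts in OV1, OV2 and OV4, and at 3029, 3704 and 3164 in FL3, FL4 and FL5. MiR-20a-5p, with the same seed, stood at 9936, 8359 and 8184 in OV and at 2120, 2152 and 2111 in fl/fl. For both, OV1 was the highest library and the fl/fl values were close to each other. The log2 differences were 1.74 ± 0.18 and 2.05 ± 0.15 (SE, adjusted p = 0.000131 and 1.72e-05). The members of the miR-19 seed group had smaller differences. MiR-19b-3p was at 2143, 1338 and 1728 in OV and 595, 583 and 604 in fl/fl (log2 1.52 ± 0.20). MiR-19a-3p was at 1429, 1213 and 1269 against 494, 575 and 496 (log2 1.32 ± 0.22), the smallest difference of the cluster.

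For miR-18a, the 3p product exceeded the 5p product in every OV and fl/fl library. MiR-18a-3p stood at 845, 793 and 825 in OV and 294, 285 and 327 in fl/fl, a narrow range in each group. MiR-18a-5p stood at 391, 189 and 205 in OV and 95.2, 91.6 and 85.1 in fl/fl, with OV1 about 2-fold above the other OV libraries. Both differed by 1.44 log2. The 3 passenger strands, cut from the less used arm, also rose: miR-17-3p by 2.05 ± 0.32, miR-20a-3p by 1.94 ± 0.39 and miR-92a-1-5p by 1.93 ± 0.55 (log2, SE). The call of miR-92a-1-5p was lost with a pseudocount of 0.5 and without OV1, FL4 or FL5, with adjusted p up to 0.0722. In the 5 hairpins with both arms listed, the 3p to 5p ratio overlapped between the groups. Libraries 3 against 3 cannot pass an exact permutation test, so these ratios are a description. For miR-92a-1, log2 of 3p over 5p was 9.75 ± 0.51 in OV and 9.20 ± 0.11 in fl/fl (SD, n = 3). For miR-19b-1 it was 6.55 ± 0.13 and 6.95 ± 0.58. MiR-92a-3p and miR-19b-3p are also made by hairpins on chromosome X, so their ratios are not of 1 hairpin alone.

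**Figure D1:**
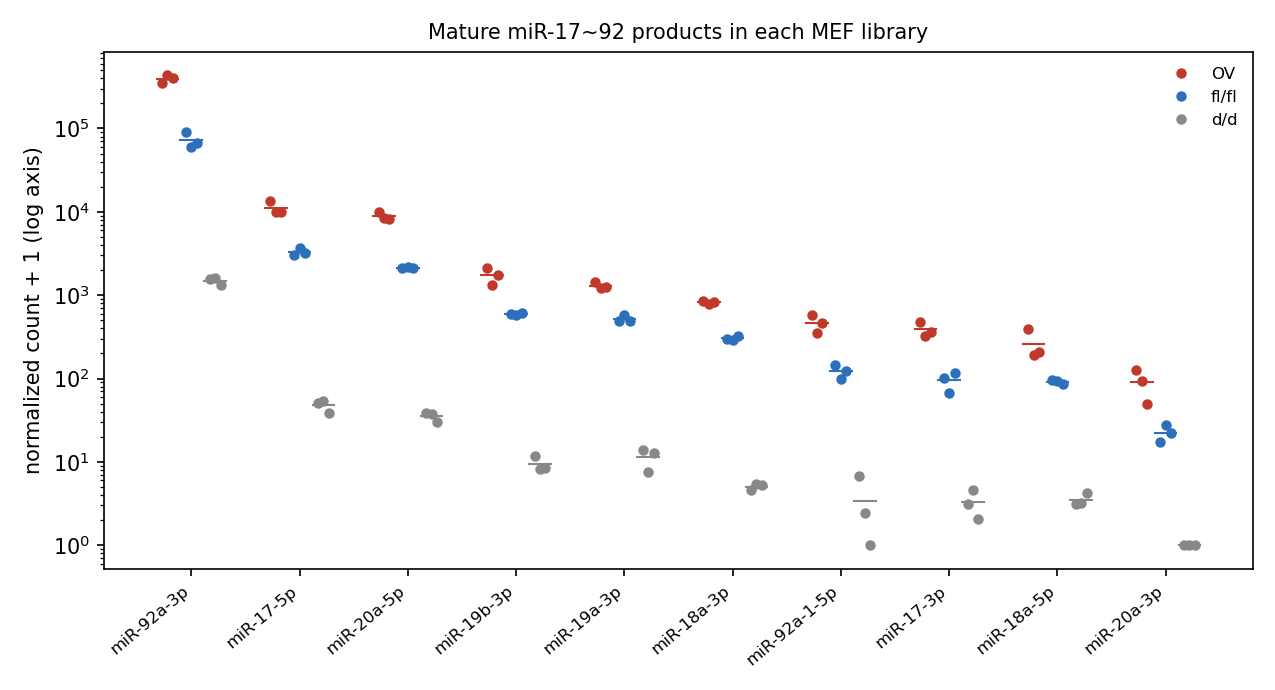
Normalized count + 1 (log axis) of the 10 kept mature miR-17~92 products in each library of OV, fl/fl and d/d MEF; points are libraries and bars are group means. In every product the 3 OV points lie above the 3 fl/fl points, which lie far above the d/d points.

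Summed over the cluster, OV1, OV2 and OV4 held 384079, 460468 and 422130 normalized counts, and FL3, FL4 and FL5 held 97388, 67779 and 73501. The groups did not overlap, and the ratio of their geometric means was 5.36 (p = 0.1, two-sided exact permutation test, the smallest that 3 against 3 allows). The d/d libraries, as background, held 1602 ± 157 (SD, n = 3). As a share of all miRNA reads, which no scaling changes, the cluster took 2.09%, 2.31% and 2.24% in OV and 0.511%, 0.338% and 0.377% in fl/fl. The 95% Wilson intervals of these shares are at most 0.0141 percentage points wide and cover counting error only, so depth is not what limits them.

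The cluster total is mostly miR-92a-3p, which made up 94.0% ± 1.45 of it in OV and 90.7% ± 2.07 in fl/fl (SD, n = 3; p = 0.2, exact permutation test, with overlap). Without it, the remaining products summed to 29392, 22557 and 23088 in OV and 6897, 7587 and 7050 in fl/fl. That is 3.46-fold, against 5.36-fold for the whole. MiR-19a-3p, miR-19b-3p and miR-18a-3p took smaller shares of the cluster in OV without overlap: 0.312% against 0.677%, 0.419% against 0.765% and 0.196% against 0.389%. Over the 10 shares compared, none passed adjustment (adjusted p = 0.286 for each of these 3, exact permutation test), and 3 against 3 libraries could not have reached 0.05.

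The pool of all miRNAs with a given seed was summed for 4 seeds of cluster products, those of miR-17-5p, miR-18a-5p, miR-19 and miR-92a-3p. The seed of miR-18a-3p, the more abundant strand of its hairpin here, was not pooled. The seed of miR-17-5p and miR-20a-5p is carried by 6 listed miRNAs, whose sum was 43742, 29718 and 33210 in OV and 19417, 34003 and 27219 in fl/fl. The groups overlapped, with FL4 above OV2 and OV4, and the ratio was 1.34 (p = 0.3, exact permutation test). The cluster supplied 56.5% ± 4.27 of this pool in OV and 21.0% ± 4.87 in fl/fl (SD, n = 3), and most of the rest was miR-93-5p. The seed of miR-92a-3p, with 5 listed miRNAs, summed to 583298, 678523 and 663677 in OV and 346726, 319309 and 322615 in fl/fl. This pool was 1.94-fold higher without overlap (p = 0.1, exact permutation test). MiR-92a-3p, from either of its loci, made up 61.8% ± 2.38 of it in OV and 21.8% ± 3.78 in fl/fl. The pools of the miR-18a-5p and miR-19 seeds consist almost wholly of products that the cluster encodes, though miR-19b-3p is also encoded on chromosome X. They were 2.72-fold and 2.70-fold higher, each without overlap (p = 0.1 for each, exact permutation test).

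**Figure D2:**
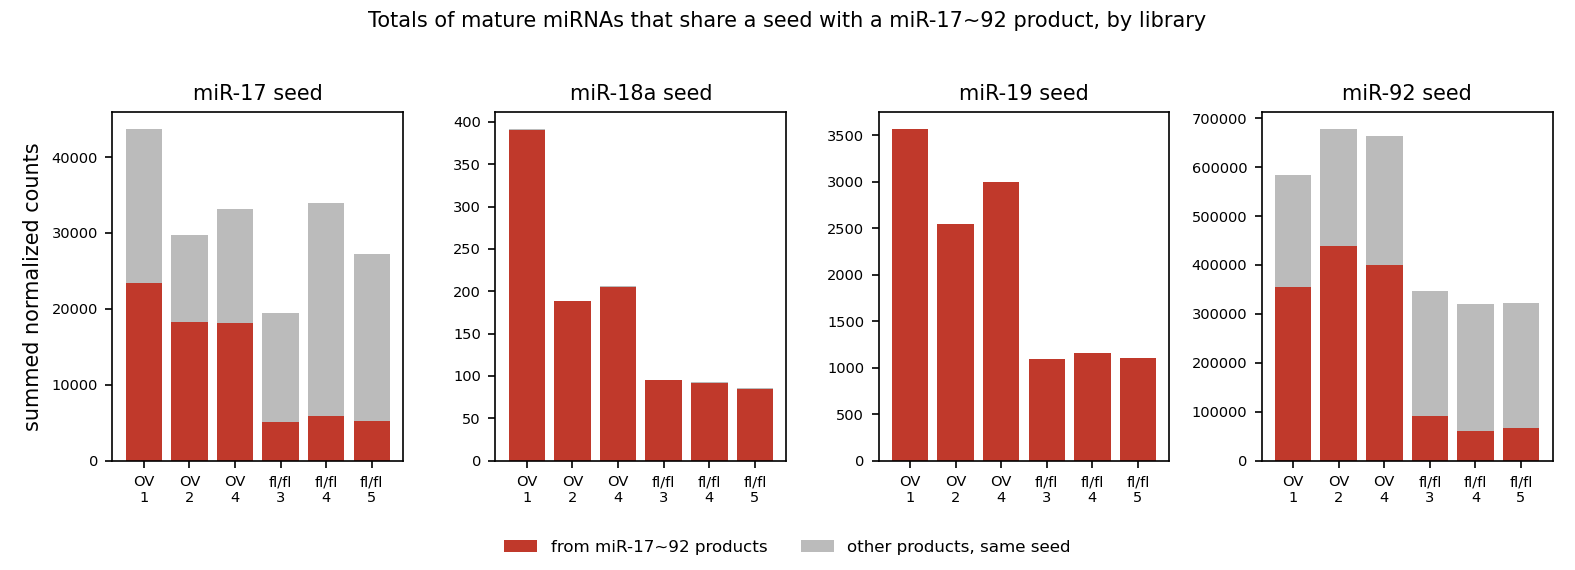
Summed normalized counts, by library, of the mature miRNAs that carry each of 4 seeds found in cluster products. Red is the part from miR-17~92 products and grey the part from other miRNAs. The total for the miR-17 seed overlaps between OV and fl/fl, whereas every OV library is above every fl/fl library for the other 3 seeds.

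The paralogous miR-106b~25 cluster lies in an Mcm7 intron and is expressed in most dividing cells. Of its 6 products, all kept, 0 were called, against 31.3% of all miRNAs. MiR-25-3p, its most abundant product, stood at 209760, 218648 and 229901 in OV and 243085, 246612 and 243950 in fl/fl. All OV libraries were lower, but the log2 difference of −0.16 ± 0.08 did not pass (SE, adjusted p = 0.158). MiR-93-5p ranged from 9928 to 16985 in OV and from 12508 to 23639 in fl/fl (log2 −0.45 ± 0.25), and miR-106b-5p from 1429 to 3207 and from 1713 to 4467 (log2 −0.49 ± 0.40), both with overlap. These 2 miRNAs and let-7g-5p had the same order over the 6 libraries, FL4, FL5, OV1, OV4, FL3 and OV2 from high to low. The cause of this shared order was not tested.

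Of the cluster from miR-106a to miR-363 on chromosome X, 2 of 5 listed products were kept and both were called higher. MiR-106a-5p stood at 137, 90.4 and 130 in OV and 35.8, 30.9 and 41.4 in fl/fl, and miR-20b-5p at 41.7, 32.0 and 52.7 against 11.3, 9.16 and 8.95. In neither did the groups overlap, but both are near copies of far more abundant products of miR-17~92. MiR-106a-5p was 1.08% ± 0.20 of miR-17-5p in OV and 1.11% ± 0.25 in fl/fl, and miR-20b-5p was 0.482% ± 0.14 and 0.460% ± 0.06 of miR-20a-5p (SD, n = 3). In d/d cells they fell to means of 2.62 and 1.43. How much of their counts is misassigned reads was not tested, and the call of miR-106a-5p was lost under 8 alternatives (adjusted p up to 0.111) and that of miR-20b-5p without FL5 (adjusted p = 0.0580). MiR-92b-3p, encoded on chromosome 3, showed the same direction, with 18450, 21614 and 34360 in OV and 12664, 12184 and 11841 in fl/fl (log2 0.97 ± 0.22, adjusted p = 0.00861) and a d/d mean of 2728. Its sequence is close to that of the more abundant miR-92a-3p (OV means 24808 and 397214). Misassigned reads were not tested for it either.

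Over the whole table, the cluster products included, 103 miRNAs were called higher and 104 lower of 662, which is 31.3% (limma, adjusted p under 0.05), and 304 had an unadjusted p under 0.05. The median log2 difference of all 662 was −0.07. With spike-in scaling it was 0.06 and the calls were 112 higher and 44 lower, and with re-centred medians they were 83 and 153, so directions of small differences are relative to this choice. Among the 30 miRNAs with a mean of at least 100000, which held 88.1% of the signal, 3 were higher and 6 lower. Among the 304 miRNAs with a mean under 100, which held 0.0558%, 43 were higher and 29 lower, with a median SE of 0.32 against 0.12 in the top class. Of the 12 largest rises among the 132 called miRNAs with a mean of at least 100 and no overlap, 7 were products of miR-17~92. Of the 12 largest falls, 7 came from the Dlk1-Dio3 region.

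**Figure D3:**
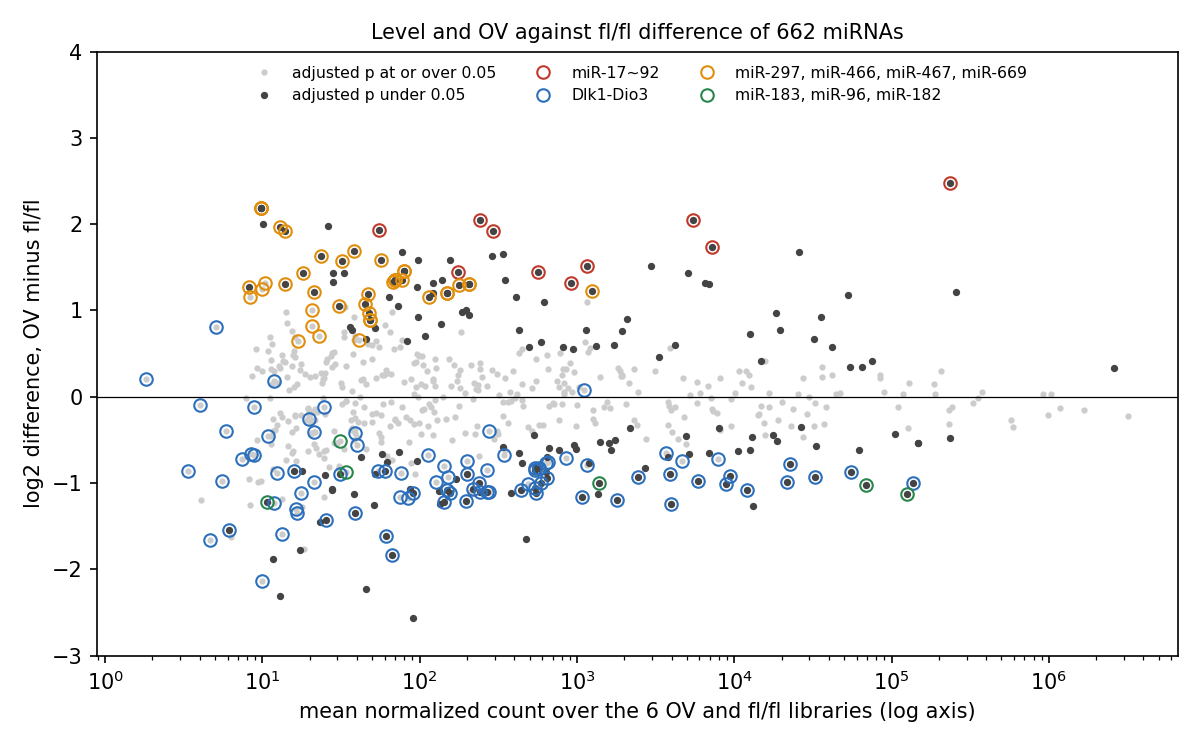
Log2 difference between OV and fl/fl against the mean normalized count over the 6 libraries (log axis) for the 662 kept miRNAs; dark points were called, and rings mark 4 groups. MiR-17~92 products lie between 1.32 and 2.47 at all levels, most Dlk1-Dio3 miRNAs lie below 0, and the miR-297, miR-466, miR-467 and miR-669 entries lie above 0 at mostly low counts.

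The 10 most abundant miRNAs were miR-21a-5p, 6 let-7 products, miR-143-3p, miR-99b-5p and miR-30d-5p, and 1 of them was called. Let-7i-5p, a let-7 member encoded alone, stood at 2571928, 3128413 and 3023108 in OV and 2394012, 2229142 and 2295276 in fl/fl (log2 0.33 ± 0.10, adjusted p = 0.0368). That call was lost under 8 alternatives, with adjusted p up to 0.363. MiR-21a-5p was lower in every OV library, at 2901682 to 3046674 against 3400369 to 3573242, but did not pass (log2 −0.23 ± 0.09, adjusted p = 0.0679). The let-7 family represses Lin28, Hmga2 and Ras genes. It held 2 higher and 2 lower calls among 21 kept products, against 15.6% and 15.7% of all miRNAs, with a median of 0.03. Its total overlapped between the groups, with a ratio of 1.00 (p = 1.00, exact permutation test).

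Among called miRNAs with a mean of at least 100 and no overlap, the largest rise outside the cluster was that of miR-129-5p, a miRNA best known from brain, where it represses Cdk6. It stood at 37390, 49120 and 31619 in OV and 12783, 11391 and 12185 in fl/fl. The groups were far apart, and the log2 difference was 1.68 ± 0.15 (SE, adjusted p = 8.21e-05). The mature 5p miRNA is made by Mir129-1 on chromosome 6 and Mir129-2 on chromosome 2. The 3p strands tell the loci apart and both were higher: miR-129-2-3p at 321, 237 and 154 against 83.9, 67.6 and 73.9, and miR-129-1-3p at 52.6, 51.5 and 41.7 against 17.4, 12.6 and 23.5. The call of miR-129-1-3p was lost without OV1, OV2, FL3 or FL4 (adjusted p up to 0.0785). The d/d mean of miR-129-5p, 27414, also lay above the fl/fl libraries.
miR-129-5p: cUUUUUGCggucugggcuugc

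MiR-146a-5p, which NF-kappaB induces and which represses Traf6 and Irak1, stood at 4011, 3827 and 5297 in OV and 1587, 1435 and 1534 in fl/fl (log2 1.51 ± 0.15, adjusted p = 9.72e-05). MiR-146b-5p, its close relative on another chromosome, stood at 35960, 46935 and 58769 against 25741, 23304 and 24063 (log2 0.93 ± 0.17, adjusted p = 0.00334). Neither overlapped, and OV4 was the highest library for both. MiR-155-5p, also on the NF-kappaB list, did not pass (log2 −0.19 ± 0.19). MiR-146b-5p was lower in d/d, at a mean of 8288, whereas miR-146a-5p was at 1279 there.
miR-146a-5p: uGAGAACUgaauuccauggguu

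MiR-140, made from an intron of Wwp2 and needed in cartilage growth, was higher in both arms. MiR-140-3p stood at 73211, 74876 and 71416 in OV and 35081, 34939 and 27313 in fl/fl (log2 1.18 ± 0.11, adjusted p = 8.89e-05). MiR-140-5p differed by 0.90 ± 0.12 (adjusted p = 0.000525). The OV values of miR-140-3p were close to each other and about 2-fold the fl/fl values. MiR-455, the other cartilage miRNA on the list, from an intron of Col27a1, was lower in both arms, by −0.61 ± 0.14 and −0.62 ± 0.20 for 5p and 3p. Neither arm of miR-455 was called with spike-in scaling.

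MiR-148a-3p, a repressor of Dnmt1, ranged more widely, at 271180, 414029 and 377977 in OV and 226106, 105884 and 142387 in fl/fl (log2 1.21 ± 0.26, adjusted p = 0.00649). FL3 lay close to OV1, but the groups did not overlap. The other strand, miR-148a-5p, differed by 0.56 ± 0.12 with values of 1060 to 1206 against 745 to 786, a call lost on re-centring (adjusted p = 0.0681). MiR-152-3p, with the same seed as miR-148a-3p, stood at 48045 to 54394 against 31048 to 37539 (log2 0.58 ± 0.11, adjusted p = 0.00429). On the list of miR-130, miR-301, miR-148 and miR-152, these were the 3 called of 11 kept, all higher, with a median of 0.12. Of all miRNAs, 15.6% were called higher.
miR-148a-3p: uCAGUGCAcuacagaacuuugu

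MiR-3473b and miR-3473e, a pair of mouse miRNAs with a shared seed, stood at 381 to 632 and 298 to 529 in OV, and at 144 to 170 and 119 to 147 in fl/fl. Their log2 differences were 1.66 ± 0.20 and 1.63 ± 0.29 (SE, adjusted p = 0.000369 and 0.00295). The sequences agree over most of their length, so reads of the pair may be shared.
miR-3473b: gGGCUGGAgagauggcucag
miR-3473e: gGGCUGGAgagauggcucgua

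The miR-23, miR-27 and miR-24 clusters, at 2 loci, repress differentiation and apoptosis genes. Of 11 kept products, 7 were higher and 0 lower, against 15.6% of all miRNAs called higher. The median was 0.46, and the counts were the same with spike-in scaling. On re-centring, and under some other alternatives, the calls of miR-24-3p and miR-27b-5p were lost (adjusted p up to 0.220 and 0.102). MiR-27a-3p stood at 48239, 36547 and 34871 in OV and 24203, 26398 and 23894 in fl/fl (log2 0.67 ± 0.13, adjusted p = 0.00382). MiR-24-2-5p, from the miR-23a locus, stood at 4885 to 5218 against 3159 to 3544 (log2 0.60 ± 0.11), and miR-24-1-5p, from the miR-23b locus, differed by 0.64 ± 0.13. The most abundant product, miR-27b-3p, did not pass (log2 0.16 ± 0.19), and the summed total overlapped between the groups (p = 0.2, exact permutation test).
miR-27a-3p: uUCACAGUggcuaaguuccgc

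The miR-322 to miR-503 cluster on chromosome X encodes relatives of miR-16 that slow the cell cycle and promote muscle differentiation. Of 11 kept products, 6 were higher and 0 lower (median 0.41, and 6 with spike-in scaling), against 15.6% of all miRNAs called higher. The cluster summed to 101480, 109613 and 114598 in OV and 74394, 88135 and 82886 in fl/fl, without overlap and 1.33-fold higher (p = 0.1, exact permutation test). The most changed were the 5p strands that carry the miR-16-like seed. MiR-322-5p stood at 256, 158 and 186 against 65.5, 88.2 and 76.1 (log2 1.35 ± 0.21), and miR-503-5p at 854, 740.5 and 927 against 449, 342 and 386 (log2 1.10 ± 0.17). MiR-351-5p, the most abundant, differed by 0.41 ± 0.11, a call lost on re-centring and without FL3 or FL5 (adjusted p up to 0.194).
miR-322-5p: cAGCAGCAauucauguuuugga
miR-503-5p: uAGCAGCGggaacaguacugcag

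The miR-297, miR-466, miR-467 and miR-669 families are known to come largely from a repeat-rich intron of Sfmbt2, an imprinted Polycomb gene. That origin was not checked here: only 1 of the 41 kept entries had a RefSeq sequence, and 0 were placed inside the gene. Of 41 kept entries, 33 were called higher and 0 lower, against 15.6% of all miRNAs called higher. All 41 differences were above 0, with a median of 1.30 (1.44 with spike-in scaling). Their summed counts were 5714, 4537 and 4627 in OV and 2257, 1881 and 1982 in fl/fl, which is 2.42-fold higher without overlap (p = 0.1, exact permutation test). They are low and hard to tell apart. MiR-669c-5p, at 1706, 2041 and 1513 against 839, 659 and 745, was the only entry with a mean over 1000 (log2 1.22 ± 0.15, adjusted p = 0.000356). MiR-467c-5p stood at 287, 217 and 258 against 109, 95.1 and 104 (log2 1.29 ± 0.16). In 13 of the kept entries of the whole table the values are identical to those of another entry in every library, all of them from these families, so the 41 are not independent. The d/d libraries, at a summed 5700 ± 384 (SD, n = 3), also stood above fl/fl.

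MiRNAs of the Dlk1-Dio3 imprinted region on chromosome 12, transcribed from the maternal allele and abundant in embryonic and mesenchymal cells, were lower. Of 88 kept of 100 listed, 40 were called lower and 0 higher, against 15.7% of all miRNAs called lower, and the median was −0.92. Their total was 278664, 328228 and 140689 in OV and 488132, 424247 and 436345 in fl/fl. OV4 was far below the other OV libraries. Without it, 42 were called lower and the median was −0.54. With spike-in scaling 12 were called lower, with a median of −0.79.

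MiR-541-5p was the most abundant of the region, at 102818, 132004 and 53544 in OV and 187104, 174784 and 176663 in fl/fl (log2 −0.997 ± 0.26, adjusted p = 0.0163). Its call was lost with spike-in scaling and without FL3 or FL5 (adjusted p up to 0.0543). MiR-433-3p stood at 2938, 3375 and 1235 against 5852, 4964 and 5544 (log2 −1.24 ± 0.30), and miR-434-5p at 16277, 18278 and 9752 against 32272, 26799 and 26344 (log2 −0.99 ± 0.20). In these 3 miRNAs OV4 was the lowest library and the groups did not overlap. MiR-1188-5p, miR-369-5p, miR-485-5p, miR-299a-3p, miR-666-5p and miR-431-5p differed by −1.22, −1.20, −1.20, −1.16, −1.12 and −1.11 log2. The call of miR-666-5p was lost under 4 alternatives and that of miR-431-5p under 6, both including spike-in scaling and leaving out FL3 or FL5 (adjusted p up to 0.0603 and 0.103). The region moved the other way in d/d, whose libraries held 2436484 ± 159086 (SD, n = 3).
miR-541-5p: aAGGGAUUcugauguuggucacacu

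MiR-183, miR-96 and miR-182 are made from 1 transcript on chromosome 6 and are best known from sensory organs, where they repress FoxO genes among others. Of 6 kept products 4 were called lower and 0 higher, also with spike-in scaling, against 15.7% of all miRNAs called lower. All 6 differences were below 0. MiR-182-5p stood at 70541, 89932 and 77858 in OV and 165665, 177660 and 176008 in fl/fl (log2 −1.13 ± 0.12, adjusted p = 0.000131). MiR-183-5p stood at 41739, 54020 and 41151 against 97741, 85163 and 92549 (log2 −1.02 ± 0.13), and miR-96-5p at 1022, 798 and 929 against 1737, 1929 and 1819 (log2 −1.002 ± 0.14). The fl/fl libraries were close to each other, and the cluster total was 2.13-fold lower in OV without overlap (p = 0.1, exact permutation test). The d/d libraries held 327750 ± 36982, against a fl/fl total of 266853 ± 3122 (SD, n = 3). The lowest d/d library, at 305076, lay above the highest fl/fl library, at 270451.
miR-182-5p: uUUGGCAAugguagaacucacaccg
miR-183-5p: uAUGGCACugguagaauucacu
miR-96-5p: uUUGGCACuagcacauuuuugcu

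MiR-212 and miR-132, neighbours on chromosome 11 that CREB induces, were lower in all 3 kept products, against 15.7% of all miRNAs called lower. MiR-212-5p stood at 191, 241 and 254 in OV and 668, 767 and 705 in fl/fl, the largest fall among miRNAs with a mean of at least 100 and no overlap (log2 −1.64 ± 0.15, adjusted p = 8.21e-05). MiR-132-3p stood at 110, 97.3 and 137 against 203, 202 and 266 (log2 −0.96 ± 0.22), and miR-132-5p at 25.8, 32.0 and 31.9 against 70.6, 73.3 and 73.9 (log2 −1.26 ± 0.20). In each the highest OV library lay well below the lowest fl/fl library.
miR-212-5p: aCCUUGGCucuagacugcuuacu
miR-132-3p: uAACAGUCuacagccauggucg

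The miR-99 to miR-125 clusters are 3 related loci that each join a miR-99 or miR-100, a let-7 and a miR-125. Of 17 kept products 3 were called, all lower, against 15.7% of all miRNAs called lower, so the count itself is near the background. All 3 can be assigned to the chromosome 16 locus. MiR-99a-5p, which represses mTOR, stood at 9026, 7822 and 6565 in OV and 19242, 17624 and 18884 in fl/fl (log2 −1.26 ± 0.13, adjusted p = 0.000109). Let-7c-1-3p stood at 13.9, 8.01 and 14.3 against 25.6, 38.9 and 38.1 (log2 −1.45 ± 0.28), and miR-125b-2-3p at 102, 101 and 57.1 against 170, 172 and 199 (log2 −1.09 ± 0.23). None overlapped, and all 3 calls also held with spike-in scaling. MiR-100-5p and miR-99b-5p, from the other loci, differed by −0.12 ± 0.12 and −0.27 ± 0.10 and were not called, nor were miR-125b-5p and let-7c-5p, which more than 1 locus makes. Whether these 3 products differ from those of the other loci was not tested.
miR-99a-5p: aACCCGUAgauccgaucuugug
let-7c-1-3p: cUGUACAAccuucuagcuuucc
miR-125b-2-3p: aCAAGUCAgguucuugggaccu

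Among the fibroblast miRNAs, 5 of 21 were lower and 0 higher, against 15.7% of all miRNAs called lower, with a median of −0.12 (2 lower and a median of 0.01 with spike-in scaling). The 5 include miR-199a-3p and miR-199b-3p, which have identical sequences. MiR-199a has hairpins on chromosomes 1 and 9, which its counts do not tell apart. MiR-199a-5p stood at 54748, 45708 and 46170 in OV and 67019, 80997 and 76746 in fl/fl (log2 −0.62 ± 0.11, adjusted p = 0.00302). The identical miR-199a-3p and miR-199b-3p count as 1 measurement, with miR-199a-3p at 147630, 93276 and 124199 against 150996, 192730 and 178149 (log2 −0.53 ± 0.17, adjusted p = 0.0384). OV1 lay just below FL3 there, and the call was lost under 6 alternatives, with adjusted p up to 0.120. MiR-143-3p, the smooth muscle and fibroblast miRNA, did not pass (log2 0.03 ± 0.15).

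Of the 8 kept miRNAs of the Hox clusters, which mark position along the body, 4 were lower and 0 higher (median −0.34). Of all miRNAs, 15.7% were called lower. MiR-10a-5p, next to Hoxb4, stood at 172694, 219485 and 194688 in OV and 280558, 271901 and 263422 in fl/fl (log2 −0.48 ± 0.10, adjusted p = 0.00622). MiR-10b-5p, next to Hoxd4, stood at 448 to 628 against 762 to 824 (log2 −0.60 ± 0.15). With spike-in scaling 0 of the 8 were called lower and 1 higher, and the median was −0.21. MiR-10a-5p and miR-10b-5p then differed by −0.35 and −0.46 log2 and were no longer called (adjusted p = 0.0845 and 0.0730). MiR-221 and miR-222, which repress the cell cycle inhibitor p27, had 3 of 4 products lower (median −0.50), against the same 15.7%. MiR-221-5p stood at 3495, 5005 and 3575 against 5437, 6964 and 6522 (log2 −0.66 ± 0.17), and 0 of the 4 were called with spike-in scaling. The call of miR-221-5p was also lost without FL4 or FL5 (adjusted p up to 0.0669).

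The miR-181 family, known from lymphocyte development, had a median of −0.33. Of its 9 kept products, 3 were lower and 0 higher, also under spike-in scaling, against 15.7% of all miRNAs called lower. These were miR-181d-5p, at 546, 438 and 488 against 759, 781 and 844 (log2 −0.70 ± 0.13, adjusted p = 0.00312), miR-181c-3p (log2 −1.13 ± 0.22) and miR-181a-2-3p (log2 −0.82 ± 0.21, lost without FL4 or FL5, adjusted p up to 0.0598). The most abundant, miR-181b-5p, did not pass (log2 −0.01 ± 0.13). MiR-3068-5p, at 1081, 696 and 756 against 1235, 2623 and 1823, and miR-1843b-3p, at 64.5, 87.0 and 89.0 against 187, 200.5 and 181, were also among the 12 largest falls (log2 −1.12 ± 0.26 and −1.25 ± 0.23).

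**Figure D4:**
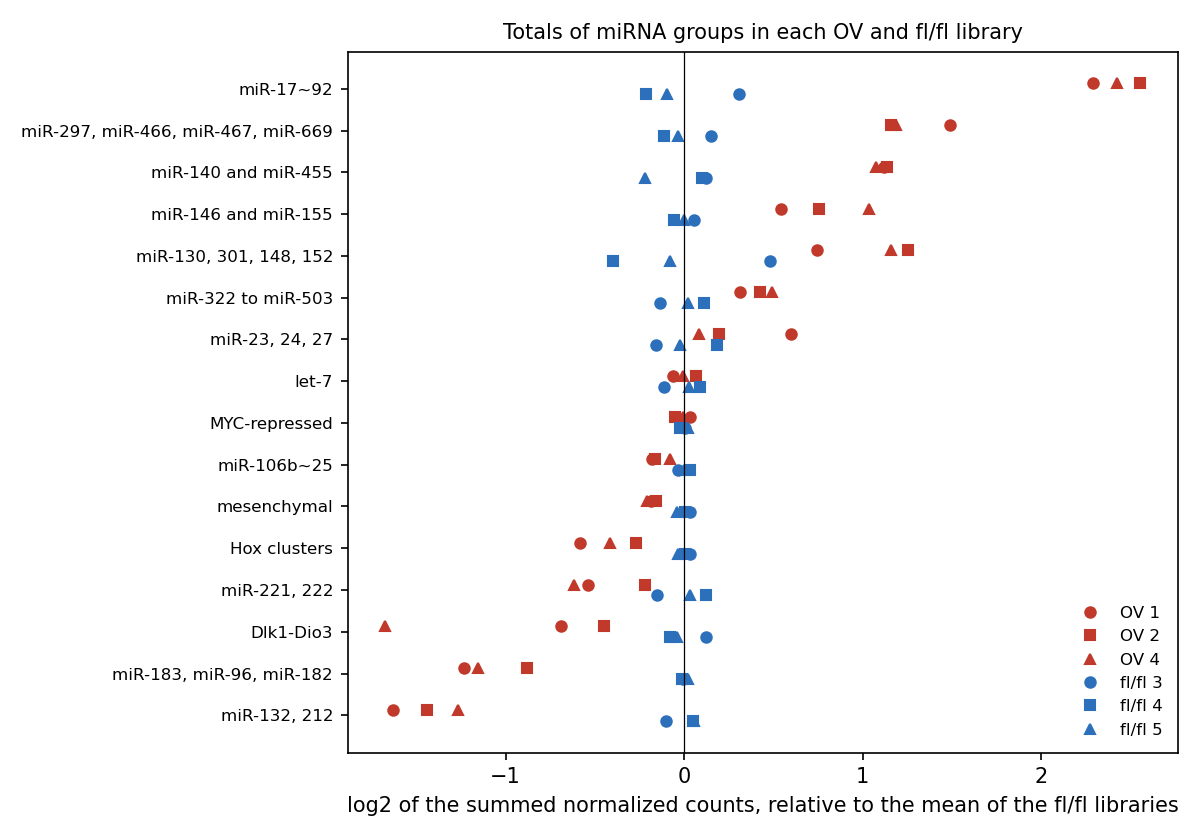
Log2 of the summed normalized counts of 16 miRNA groups in each OV and fl/fl library, relative to the mean of the fl/fl libraries; markers are libraries. MiR-17~92 lies above 2 in all OV libraries, OV4 is the lowest library for Dlk1-Dio3, and the let-7 and MYC-repressed totals overlap between the groups.

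Lists tied to growth control are set against all 662 miRNAs, of which 15.6% were called higher and 15.7% lower. Of 36 kept miRNAs that MYC is known to repress, 2 were higher and 2 lower, with a median of −0.03, and their total overlapped (p = 0.9, exact permutation test). The lower pair were the 2 strands of miR-26b, with miR-26b-5p at 19654, 13334 and 13940 against 21479, 21876 and 22356 (log2 −0.51 ± 0.15, a call lost under 8 alternatives, adjusted p up to 0.128). The higher pair were miR-23a-5p (log2 1.20 ± 0.20) and miR-195a-3p (log2 0.77 ± 0.24, lost under 7 alternatives, adjusted p up to 0.0941). Of 9 kept p53-responsive miRNAs, 0 were called. MiR-34a-5p, the best known of them, stood at 107, 45.8 and 51.6 against 128, 121 and 109 (log2 −0.90 ± 0.36, adjusted p = 0.0777), and miR-34c-5p at 11297 to 12274 against 9728 to 11634. Of 10 products of miR-15, miR-16, miR-195 and miR-497, 1 was higher, miR-195a-3p. Of 10 that bypass Drosha or Dgcr8, 2 were higher, against 15.6% of all miRNAs. These were the 2 strands of the mirtron miR-3102. The call of miR-3102-3p was lost under 7 alternatives and that of miR-3102-5p without FL4 or FL5 (adjusted p up to 0.134 and 0.0603).

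Some miRNAs of other tissues differed at low counts. MiR-200b-3p, the epithelial miRNA that represses Zeb1 and Zeb2, stood at 21.8, 25.2 and 30.8 in OV and 154, 162 and 153 in fl/fl, the largest fall of all named miRNAs (log2 −2.56 ± 0.24, adjusted p = 8.89e-05). MiR-205-5p, of squamous epithelia, went the other way, at 23.8, 16.0 and 11.0 against 3.07, 3.44 and 3.36 (log2 2.00 ± 0.42, adjusted p = 0.00601). Over all miRNAs, 15.6% were called higher and 15.7% lower. On the epithelial list 4 of 8 were kept, with 2 called higher and 1 lower. On the neural list, 3 of 11 were higher, all products of miR-129, and 2 lower, miR-218-5p and miR-128-3p, the second not called with spike-in scaling. MiR-218-5p, of the Slit genes, stood at 10961, 8760 and 10279 against 15451, 14955 and 15384 (log2 −0.62 ± 0.11, adjusted p = 0.00302). Of the kept haematopoietic, muscle, pluripotency, and endothelial and liver miRNAs, 0 were called. The part of other cells in these differences was not tested.
miR-200b-3p: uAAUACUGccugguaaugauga

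Among imprinted miRNAs outside the regions above, miR-483-3p, from an Igf2 intron, stood at 3.97, 0 and 13.2 against 12.3, 26.3 and 22.4, with overlap (log2 −2.30 ± 0.75, adjusted p = 0.0403, lost under 9 alternatives). MiR-335-3p, from a Mest intron, did not pass, with OV4 at 6668 and the other OV libraries at 3376 and 4102 against 2962 to 3176 (log2 0.56 ± 0.21, adjusted p = 0.0666). MiR-224-5p, from a Gabre intron, stood at 70343 to 74145 against 53148 to 61619 (log2 0.34 ± 0.10, adjusted p = 0.0212), a call lost on re-centring and without FL3 or FL5.

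Since both strands of a hairpin come from the same transcript, the arms were compared over the 175 hairpins with both kept. Both arms were called in 42, of which 19 had both higher, 22 had both lower and 1 had opposite directions. A further 43 had 1 arm called and 90 had none. The 3p to 5p ratio did not overlap between the groups in 37 hairpins, which is 21.1%, and the median absolute difference between the arms was 0.30 log2. The opposite case was miR-98, a let-7 relative, whose 5p strand was lower, at 14064 to 15743 against 18732 to 21062 (log2 −0.44 ± 0.11). Its 3p strand was higher, at 76.4, 75.5 and 49.4 against 39.9, 37.8 and 34.7 (log2 0.80 ± 0.23). The call of miR-98-5p was lost with spike-in scaling and without FL4 or FL5 (adjusted p up to 0.145). That of miR-98-3p was lost when any library but OV4 was left out (adjusted p up to 0.0791).

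MiR-322 and miR-503 leaned toward their 5p strands in OV. Log2 of 3p over 5p for miR-322 was 6.06, 6.60 and 6.58 in OV and 7.66, 7.06 and 7.33 in fl/fl, and for miR-503 it was 0.21, 0.41 and 0.33 against 0.92, 1.44 and 1.03. MiR-23a, at 6.69, 6.64 and 6.82 against 7.52, 7.80 and 7.20, leaned the same way. In each the OV libraries lay below all fl/fl libraries, and the less abundant strand differed more than the other. The arms of miR-466i and miR-483 also differed by more than 1 log2, at means under 20, but their ratios overlapped.

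**Figure D5:**
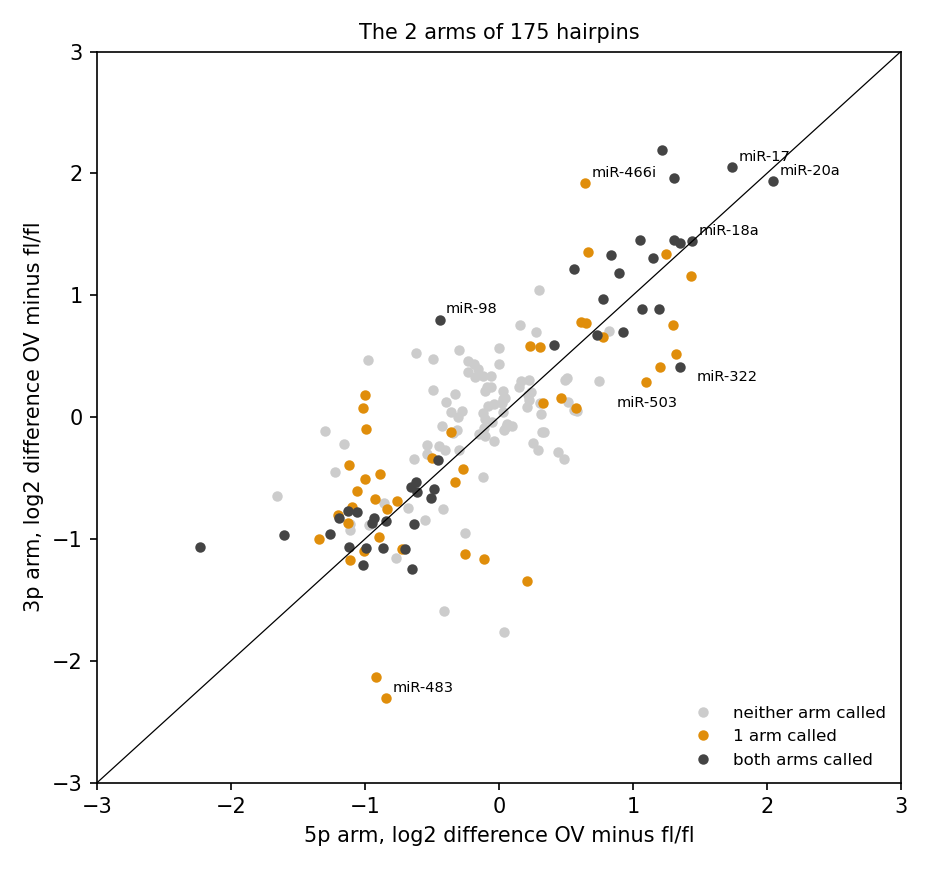
Log2 difference between OV and fl/fl of the 3p arm against that of the 5p arm for 175 hairpins; the line marks equal differences and colours show how many arms were called. Most called pairs lie in the upper right or lower left of the plot, miR-98 lies in the upper left, and miR-322 and miR-503 lie below the line.

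The d/d and the OV libraries were set against the same fl/fl libraries, so agreement between the 2 comparisons is not independent and only the values are given. Named miRNAs on the same side of fl/fl in both included miR-129-5p (log2 1.68 in OV and 1.18 in d/d), miR-140-3p (1.18 and 0.64), miR-669c-5p (1.22 and 1.47) and miR-200b-3p (−2.56 and −3.49). On opposite sides were miR-541-5p (−0.997 and 2.52), miR-146b-5p (0.93 and −1.56), miR-224-5p (0.34 and −1.50) and miR-181d-5p (−0.70 and 1.31).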

How the data were processed

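Total RNA with added spike-ins was gel-purified for small RNAs and made into libraries with the NEBNext small RNA kit, per the labels' protocols. In the deposited tables each value is a signal, a read count that the authors divided by a library's size factor. The submitters' processing notes name DESeq2, with no version. Aligner, counter, miRNA annotation and genome build: not given in the sources used here. In the spike-in table, dividing by a library's smallest step gave whole numbers in 100% of values (within 0.0001), and these were taken as reads for the count tests. In the other table the step of OV1 is too near 1 to tell reads from rounding. The 18 columns of transformed values were not used. Column names show the group but not which labelled replicate they are.

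The main test was limma 3.58.1 (R 4.3.3), its prior variance following the mean level, on log2(normalized count + 1) of 662 miRNAs with a mean of at least 10, group as the only term over 9 libraries, Benjamini-Hochberg adjustment over all 662 and a threshold of 0.05. Folds on this scale understate changes of low miRNAs. It was tested on simulated data. The spike-in table, edgeR 4.0.16 and DESeq2 1.42.0 on recovered reads, other pseudocounts and filters, and leaving out libraries were alternatives. Totals, shares and ratios were compared with two-sided exact permutation tests (scipy 1.17.1). Just inside the minimum lay miR-1932 and miR-7025-5p (means 10.01 and 10.2), just outside miR-1966-5p and miR-7070-5p (9.996 and 9.97).

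The members and the lists were chosen with earlier results of these data known. Named miRNAs were products of the cluster and its paralogs, the 10 most abundant, the 12 largest rises and falls among called miRNAs with a mean of at least 100 and no overlap, the leading and the most abundant members of each list, and the 3 hairpins with the largest arm differences. This rule gives 103 miRNAs. A further 31, such as miR-92b-3p, miR-96-5p, miR-27a-3p, miR-199a-3p and miR-129-1-3p, were chosen after their values were seen. Of an X-linked rodent cluster, 0 of 11 listed products were kept.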

Additional observations from a re-analysis of the deposited data

How the results depend on the processing

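The total of 207 calls ranged from 124 (without FL5) to 233 when 1 library was left out, the 103 higher calls from 72 to 104 and the 104 lower calls from 52 to 129. Leaving out FL3, FL4 or FL5 gave 60, 65 and 52 lower calls. Higher calls were 64 with a minimum mean of 100. Lower calls were 61 with the 6 libraries only and 44 with spike-in scaling. The cause was not tested, except that a higher minimum leaves fewer miRNAs to test. DESeq2 called 236 and edgeR 182 miRNAs. The 10 miR-17~92 products kept their direction in every alternative, and the log2 differences of the cluster total (2.42) and share (2.46) lay between 2.29 and 2.63. Keeping only the 662 miRNAs in the share was chosen after seeing the data and gave 2.46. Of the 93 named miRNAs that were called, 56 kept the call in all alternatives run. The 37 others include let-7i-5p, miR-10a-5p, miR-541-5p, miR-222-3p and miR-199a-3p. Over 2119 alternatives for single miRNAs, 1885 kept direction and side of the threshold, 178 lost and 24 gained a call. The other 32 changed sign, all in miRNAs that were not called.

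These sign changes were small. With spike-in scaling, log2 was 0.0315 for miR-25-5p, 0.0032 for let-7f-5p, 0.13 for miR-181b-5p, 0.0793 for miR-452-5p, 0.0481 for miR-126a-3p, 0.0180 for miR-126a-5p, 0.0832 for miR-32-5p, 0.0137 for miR-125b-5p and 0.0164 for miR-100-5p. On re-centring it was −0.10 for miR-143-3p, −0.10 for let-7b-5p and −0.0698 for miR-30d-5p. DESeq2 gave −0.0020 for miR-143-3p and edgeR gave 0.0388 for miR-181b-5p. The arm ratio of miR-19b-1 differed by 0.20 with a pseudocount of 5. Leaving out 1 library in turn gave −0.0709 to 0.17 for miR-143-3p, −0.0701 to 0.12 for let-7b-5p, −0.0575 to 0.31 for miR-27b-3p, −0.0971 to 0.0869 for miR-181b-5p, −0.27 to 0.21 for miR-452-5p, −0.62 to 0.0710 for miR-142a-5p, −0.35 to 0.0464 for miR-126a-5p, −0.18 to 0.10 for miR-32-5p and −0.22 to 0.0145 for miR-100-5p. The arm ratios ranged over −0.0034 to 0.50 for miR-17, −0.17 to 0.31 for miR-18a and −0.33 to 0.22 for miR-20a. Totals, shares and arm ratios used all listed products, so a run with no minimum would repeat them. No paired analysis was possible because the OV columns (1, 2 and 4) and the fl/fl columns (3, 4 and 5) share fewer than 2 numbers, so the replicate block was not run. MiRNAs under a mean of 100 had a median SE of 0.32 log2, which limits what could be called there.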
